A study of Mus musculus with 24 samples.

Results

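The difference between CAG42 and wild-type (WT) mice was measured here as an average over both brain regions of the study, cerebellum and brainstem, to find transcripts that moved alike in both. The 16 brain arrays of the 24 in the series entered, 4 per genotype and region. All 45037 probe sets that are not array controls were included. A probe set is a group of short probes read out as 1 transcript measurement, and several can belong to 1 gene. For each genotype and replicate number, the cerebellum and brainstem values were averaged, which left 4 CAG42 and 4 WT values per probe set. The mean difference is CAG42 minus WT on the log2 scale, so that -1 is a halved level.

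CAG42 mice were homozygous for an expanded CAG repeat knocked into Atxn2 and expressed under its own promoter. The line was made in embryonic stem cells of a strain other than C57BL/6 and backcrossed to C57BL/6 for at least 8 generations, and WT littermates served as controls. All mice were 18 months old. The sources used here do not give their sex, but Xist, the RNA of the inactive X chromosome, was at 11.54 to 11.86 (probe set 1436936_PM_s_at) and the Y-linked Kdm5d, Uty and Eif2s3y at 3.53 or less on every brain array. The labels do not say that a replicate number marks 1 mouse.

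Ataxin-2, the product of Atxn2, is an RNA-binding protein that associates with poly(A)-binding protein and ribosomes and takes part in stress granules. Its polyglutamine stretch is encoded by the CAG repeat, and long repeats cause spinocerebellar ataxia type 2 (SCA2). In SCA2 the Purkinje neurons of the cerebellum and neurons of the pons and medulla in the brainstem degenerate.

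The values are log2 intensities after RMA (robust multi-array average), which subtracts background, gives all arrays 1 distribution and summarises the probes of a set. All 7 cerebellum markers were higher in every cerebellum than in every brainstem array, and all 6 brainstem markers the other way. Arrays of 1 group correlated with r of at least 0.992. The 23 control probe sets without a target, which show the level of background, had means between 2.37 and 4.76 (median 2.68). RNA integrity, read from the 3′ to 5′ difference of Gapdh, averaged -0.046 (SD 0.0374) for CAG42 and -0.00754 (SD 0.0298) for WT on the log2 scale, with 4 values each and a two-sided exact permutation p of 0.171. The exact permutation p was 0.257 for Actb. In whole tissue, fewer cells of a type and less RNA per cell cannot be told apart.

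Of the 45037 probe sets, 18 passed an adjusted p under 0.05 (limma's moderated test, Benjamini-Hochberg), 3 higher and 15 lower in CAG42 mice, which is 0.04% of those tested. At an unadjusted p under 0.05 there were 3462 (7.69%), 1513 higher and 1949 lower. Taken alone with its own 8 arrays, cerebellum gave 10 (0.0222%) and brainstem 6 (0.0133%), and 6 of the 18 were called in neither region alone. All 18 differed in the same direction in both regions, but they were chosen by the mean of these same differences, which favours this. The CAG42 and WT means did not overlap for 2172 probe sets (4.82%). In 124 (0.275%), 59 higher and 65 lower, the arrays of the genotypes were separate in cerebellum and also in brainstem, the same way. Of the 18, 17 were among these, which their choice also favours. The exception was A930024E05Rik, whose brainstem arrays overlapped. The scatter of mean differences was narrow, with the 1st percentile at -0.287 and the 99th at 0.285.

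**Figure D1:**
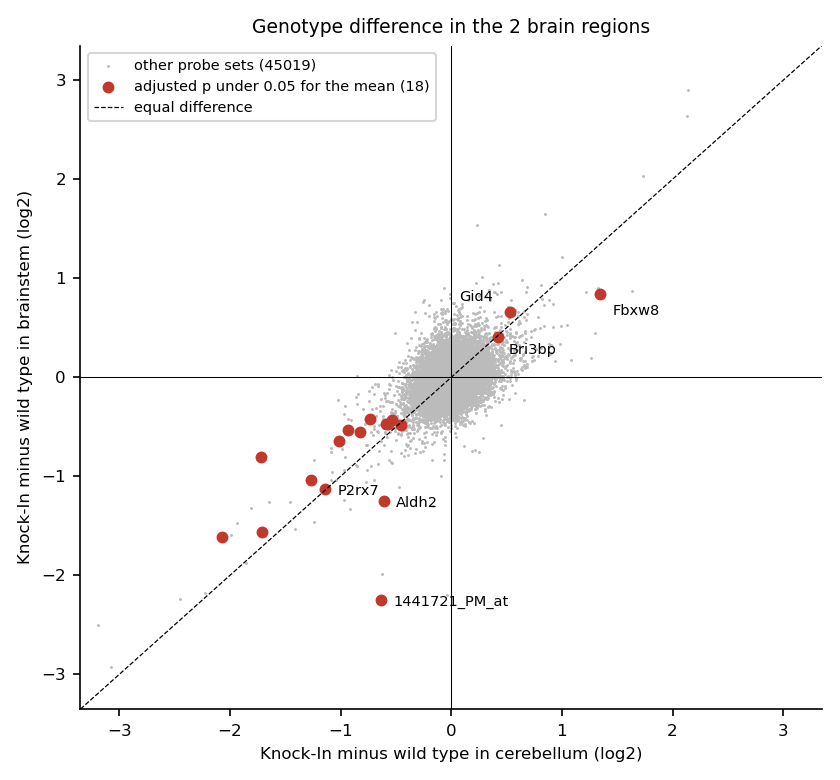
Difference between CAG42 and WT in cerebellum (horizontal axis, log2) and brainstem (vertical axis, log2) for 45037 probe sets, with the 18 called by the mean of both regions in red and the line of equal difference dashed. The called probe sets lie at the upper right or lower left, and 1441721_PM_at and Aldh2 lie well below the dashed line. All CAG42 arrays of these 2 lay within the range of the control probe sets without a target, so that their sizes in the regions cannot be ranked.

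The 18 probe sets comprised 8 that named 7 genes (7 of 17075 genes, 0.041%) and 10 assigned to no gene. By these probe sets P2rx7, Aldh2, Adam1a and the RIKEN gene A930024E05Rik were lower in CAG42 mice, and Fbxw8, Bri3bp and Gid4 were higher. Brighter probe sets of Aldh2 and Gid4, and other ones of P2rx7 and Bri3bp, were not called, as given below. All of these genes but Gid4 lie within 20 Mb of Atxn2 on chromosome 5 in the gene table used here.

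The stretch of 100 bases before each annotated start is given for the called genes listed in the promoter table used (RefSeq, build GRCm38.p6), because most of these genes lie close together on 1 chromosome and moved in different directions. Fbxw8 and Aldh2 have no entry there. Bases run 5′ to 3′ on the gene's strand, and capitals mark the GC box GGGCGG or its reverse complement CCGCCC. This motif occurs on either strand in 24.7% of all 32851 stretches of this length in the table. The A930024E05Rik stretch holds 1, that of Bri3bp 3, 2 of which share bases, that of Gid4 1 and the upstream one of the 2 P2rx7 starts 2. Those of Adam1a and of the downstream P2rx7 start hold none. TATAAA (5.56% of all) and CCAAT (18.9%) occur in none of the 6 on either strand. GC content ranges from 42% before the downstream P2rx7 start to 79% before Bri3bp, and no motif was tested for a part in the differences.
P2rx7, upstream start (chr5:122643827-122643926, plus strand): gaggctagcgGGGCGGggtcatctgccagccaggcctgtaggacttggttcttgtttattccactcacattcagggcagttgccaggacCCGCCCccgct
P2rx7, downstream start (chr5:122650283-122650382, plus strand): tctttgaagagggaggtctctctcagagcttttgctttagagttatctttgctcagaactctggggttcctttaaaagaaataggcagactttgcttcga
Adam1a (chr5:121521696-121521795, minus strand): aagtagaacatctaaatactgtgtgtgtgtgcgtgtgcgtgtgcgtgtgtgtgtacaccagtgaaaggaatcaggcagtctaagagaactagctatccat
A930024E05Rik (chr5:122989254-122989353, plus strand): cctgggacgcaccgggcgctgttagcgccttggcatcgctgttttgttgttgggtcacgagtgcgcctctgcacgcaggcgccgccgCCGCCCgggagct
Bri3bp (chr5:125441468-125441567, plus strand): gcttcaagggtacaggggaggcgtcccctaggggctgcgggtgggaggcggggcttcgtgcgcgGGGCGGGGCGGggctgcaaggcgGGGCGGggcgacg
Gid4 (chr11:60417045-60417144, plus strand): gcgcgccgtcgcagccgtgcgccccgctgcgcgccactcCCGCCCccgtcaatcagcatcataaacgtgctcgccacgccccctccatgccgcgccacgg

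The targeted gene itself did not pass the test. Atxn2 has 5 named probe sets, whose mean differences lay between -0.16 and 0.07 with adjusted p of at least 0.697. By the brightest, 1419866_PM_s_at, the means of both regions were 10.09, 10.08, 10.07 and 10.03 in CAG42 and 10.07, 10.16, 10.17 and 10.15 in WT mice. The genotypes overlapped, so that the amount of Atxn2 transcript did not separate them. These probe sets do not read the length of the repeat and therefore do not check the genotype labels. Pabpc1, the poly(A)-binding protein that ataxin-2 binds, was at 10.92, 10.94, 10.95 and 10.92 in CAG42 and 10.81, 10.87, 10.83 and 10.84 in WT mice. Its values did not overlap, but the difference of 0.10 (standard error 0.04) was not called (adjusted p = 0.643 from limma).

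P2rx7, a channel that ATP outside the cell opens and that is best known from microglia and macrophages, was lower in both regions by nearly the same amount. By probe set 1439787_PM_at its log2 levels in cerebellum were 3.62, 3.98, 3.76 and 3.89 in CAG42 and 4.95, 4.69, 5.02 and 5.15 in WT mice. In brainstem they were 4.27, 4.48, 4.40 and 4.29 in CAG42 and 5.65, 5.64, 5.25 and 5.39 in WT mice. Every CAG42 array was below every WT array in both regions. The mean difference was -1.13 (standard error 0.07, n = 4 per genotype, adjusted p = 0.000313 from limma), made up of -1.14 in cerebellum and -1.13 in brainstem. The difference between these was -0.01 (limma, unadjusted p = 0.943). All 8 CAG42 brain arrays, and 1 of the 8 WT arrays, lay within the range of the control probe sets without a target, so that no fold is given and the near-equal sizes in both regions may be set by that floor. The other P2rx7 probe sets stayed uncalled, at -0.25 for 1419853_PM_a_at (adjusted p = 0.604) and -0.05 for 1422218_PM_at, both at levels of 3.09 to 3.75.

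Aldh2, the mitochondrial enzyme that oxidises acetaldehyde and lipid aldehydes, was lower by 1 of its 3 probe sets. In cerebellum 1457155_PM_at was at 2.90, 3.12, 3.0 and 2.93 in CAG42 and 3.77, 3.43, 3.58 and 3.63 in WT mice. In brainstem it was at 3.41, 3.41, 3.22 and 3.37 in CAG42 and 4.52, 4.79, 4.40 and 4.68 in WT mice. There was no overlap in either region, although all these levels are within or just above the range of the control probe sets without a target. Over both regions the difference was -0.93 (adjusted p = 0.000313). It was about -0.61 in cerebellum and -1.25 in brainstem, a difference with an unadjusted p of 0.00085 (limma) that did not pass over all probe sets. All 8 CAG42 arrays and 7 of the 8 WT arrays lay within the control range, so that the sizes in the regions cannot be ranked. The brighter probe sets, 1448143_PM_at near 9 and 1437410_PM_at near 5.8, gave -0.09 and -0.08 and were not called.

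Adam1a, a member of the membrane metalloprotease-disintegrin family known from sperm, fell by 2 of its 3 probe sets. The levels of the probe set that the study assigns to this gene were, in cerebellum, 6.13, 6.41, 6.35 and 6.11 in CAG42 and 7.20, 7.10, 6.99 and 7.0 in WT mice. Those in brainstem were 5.55, 5.56, 5.54 and 5.56 in CAG42 and 6.26, 6.01, 6.11 and 6.05 in WT mice. CAG42 arrays were below all WT arrays in each region, and in brainstem they differed among themselves by no more than 0.02. Averaged over both regions this was -0.69 (standard error 0.06, adjusted p = 0.00538), and by 1427790_PM_at it was -0.73 (adjusted p = 0.00587). The remaining dim one, 1427791_PM_a_at, gave -0.04. Both called sets showed a larger difference in cerebellum, -0.82 and -0.93 against -0.55 and -0.53 in brainstem.

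A930024E05Rik, a gene without an assigned function here, was measured by 1440206_PM_at. In cerebellum it was at 6.57, 6.71, 6.62 and 6.60 in CAG42 and 7.32, 7.21, 7.53 and 7.37 in WT mice. In brainstem it was at 4.84, 4.93, 5.06 and 4.84 in CAG42 and 5.50, 5.38, 5.05 and 5.41 in WT mice. The cerebellum groups were apart, while in brainstem WT replicate 3 fell among the CAG42 arrays. The mean difference was -0.57 (standard error 0.05, adjusted p = 0.00587).

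Fbxw8, an F-box protein that selects substrates for a CUL7 ubiquitin ligase, had the largest difference of the called genes that rose. By 1426944_PM_at it was at 8.15, 8.16, 8.15 and 8.38 in cerebellum of CAG42 and 6.79, 6.54, 7.48 and 6.65 in cerebellum of WT mice. In brainstem it was at 7.50, 7.41, 7.41 and 7.50 in CAG42 and 6.53, 6.55, 6.94 and 6.43 in WT mice. No WT array reached the CAG42 range, but WT replicate 3 was the highest WT value in both regions. The mean difference was 1.09 (standard error 0.14, adjusted p = 0.0389), a 2.13-fold level, with 1.35 in cerebellum and 0.84 in brainstem (difference 0.50, unadjusted p = 0.00182). The brightest probe set, 1436732_PM_s_at, gave 1.11 with WT replicate 3 at 7.59 and the other WT means at 6.68 to 6.74, and was not called (adjusted p = 0.22). Without WT replicate 3 the adjusted p of 1426944_PM_at was 0.00022 and the difference 1.25, and with any of the other 7 numbers left out it was between 0.11 and 0.172.

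Bri3bp, which encodes a protein that binds the brain protein BRI3, was at 8.75, 8.73, 8.79 and 8.76 in cerebellum of CAG42 and 8.46, 8.28, 8.36 and 8.26 in cerebellum of WT mice by 1438198_PM_at. In brainstem it was at 9.16, 9.24, 9.22 and 9.32 in CAG42 and 8.82, 8.79, 8.83 and 8.88 in WT mice. The genotypes were apart in both regions by differences of nearly the same size, 0.42 and 0.41. Their average was 0.41 (standard error 0.05, adjusted p = 0.0196). Its other 3 probe sets gave 0.16, -0.01 and 0.05 and were not called. Only the omission of WT replicate 1 left it called (adjusted p = 0.0459), and that of each other number gave 0.0574 to 0.118.

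Gid4, the substrate receptor of the GID/CTLH ubiquitin ligase on chromosome 11, was the called gene outside the Atxn2 region. By 1420661_PM_a_at it was at 3.97, 4.06, 4.15 and 3.83 in cerebellum of CAG42 and 3.44, 3.31, 3.70 and 3.46 in cerebellum of WT mice. In brainstem it was at 4.15, 4.13, 3.96 and 4.40 in CAG42 and 3.91, 3.38, 3.13 and 3.58 in WT mice. The groups did not overlap, at levels inside the range of the control probe sets without a target. The mean difference was 0.60 (standard error 0.07, adjusted p = 0.0277). Its brighter probe sets 1438006_PM_at and 1427066_PM_a_at gave 0.17 and 0.05 and were not called. It was called without WT replicate 1 (adjusted p = 0.012) and not with any other number left out (0.0806 to 0.153).

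**Figure D2:**
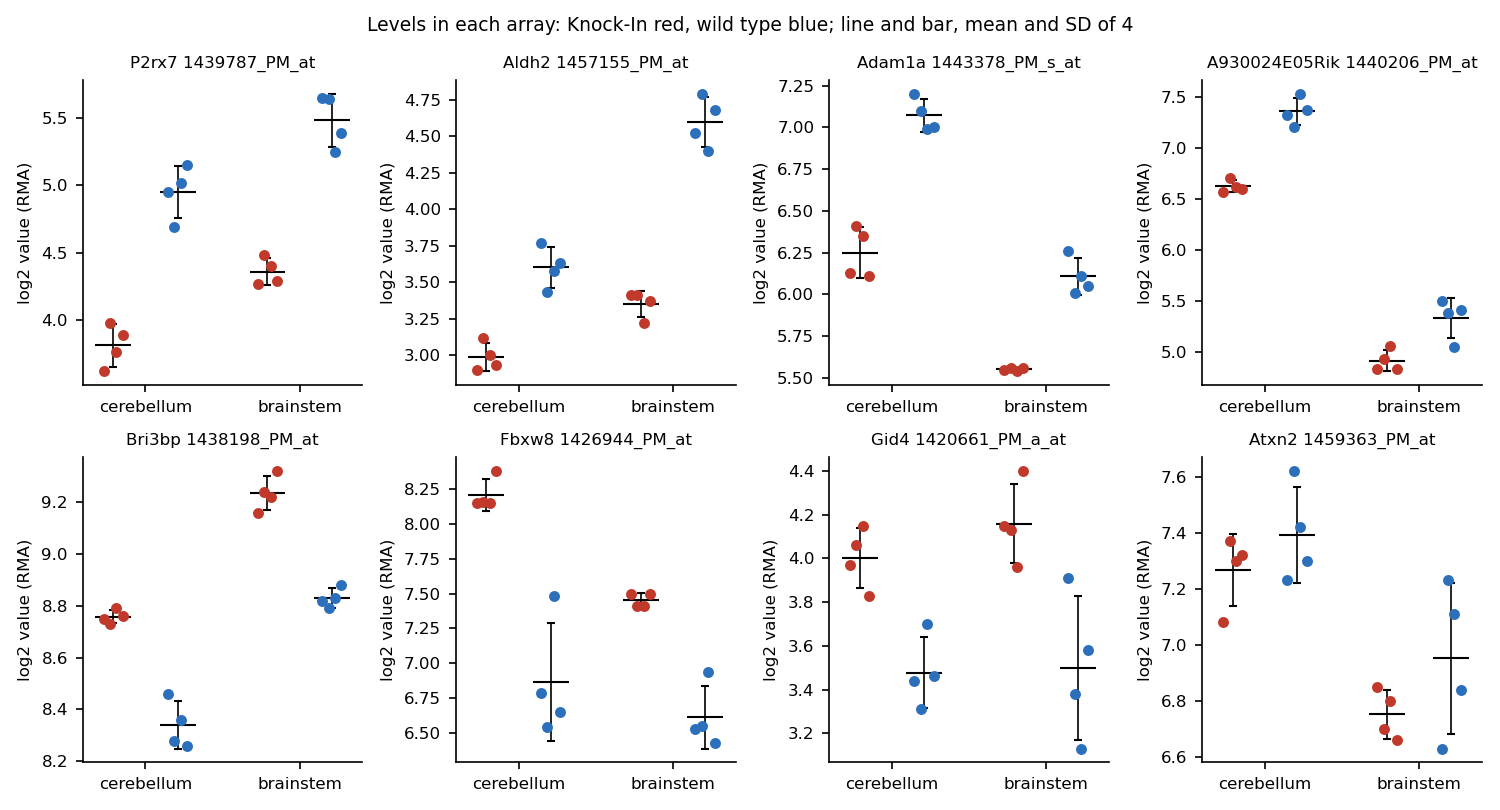
Log2 value of each array for 1 probe set of each of the 7 called genes and, for comparison, of Atxn2, by region, with CAG42 (Knock-In) in red and WT in blue, and the mean and SD of 4 arrays in black. CAG42 and WT points do not overlap for the 7 called genes, except for A930024E05Rik in brainstem, whereas the Atxn2 points overlap in both regions. The vertical axes differ between panels and do not start at 0.

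The 10 called probe sets without a gene name were all lower in CAG42 mice. The lowest p of all was that of 1447526_PM_at, whose means of both regions were 4.61, 4.71, 4.76 and 4.89 in CAG42 and 6.41, 6.38, 6.15 and 6.55 in WT mice. It differed by -1.63 (standard error 0.09, adjusted p = 0.000313). Larger in size was 1443905_PM_at, at 4.0, 4.35, 4.51 and 4.48 against 6.06, 6.23, 6.14 and 6.27, a difference of -1.84 (adjusted p = 0.000313). Neither overlapped in any region. The 3 brightest, 1420494_PM_x_at, 1437666_PM_x_at and 1425966_PM_x_at, lay between 10.35 and 12.11 and fell by 0.52, 0.48 and 0.47 on the log2 scale. The suffix x marks probes that can match several transcripts, so that their levels may come from more than 1 gene. The remaining ones were 1441721_PM_at (-1.44), 1444750_PM_at (-1.26), 1446429_PM_at (-1.15), 1446137_PM_at (-0.83) and 1446948_PM_at (-0.53). Of the 18 called probe sets, 8 had no brain array within the range of the control probe sets without a target, which reaches 4.76. In 6 all CAG42 arrays lay within it: P2rx7, Aldh2, Gid4, 1441721_PM_at, 1446429_PM_at and 1446948_PM_at. For Gid4 and 1446948_PM_at all WT arrays did so too. A difference measured there may understate the one in transcript level. For Gid4 and 1446948_PM_at the levels do not show whether a transcript was detected at all, so that no size can be read from them.

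How evenly these probe sets moved in both regions varied. In 14 of the 18 the measured difference was larger in cerebellum. However, 10 of the 18 had at least 1 array within the range of the control probe sets without a target, which can limit a size in either region. The test of the difference between regions called 0 of 45037 probe sets (0%; 1908 at an unadjusted p under 0.05), and 7 of the 18 had an unadjusted p under 0.05. The lowest p was that of 1441721_PM_at, at -0.63 in cerebellum and -2.24 in brainstem (adjusted p = 0.0718 from limma). Its brainstem levels were 3.75, 3.41, 3.34 and 3.33 in CAG42 and 5.91, 5.80, 5.41 and 5.70 in WT mice. All its CAG42 arrays and the 4 WT cerebellum arrays lay within the control range, so that the cerebellar value is limited by the floor and the sizes in the regions cannot be ranked. Named genes with a low p included Fcgr2b, an inhibitory antibody receptor, Grp, the gastrin-releasing peptide, Cck, the cholecystokinin precursor, and Hdc, which makes histamine. Grp had 0.23 in cerebellum, where its means of 3.19 in CAG42 and 2.96 in WT mice were within the control range, and -0.30 in brainstem. Cck had 0.58 and -0.01. None of these passed the test of the difference or of the mean, and their mean differences were between -0.03 and 0.29.

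Beyond the 7 genes, those with the lowest p whose genotypes did not overlap are given as values. They included 4 more genes within 20 Mb of Atxn2: Anapc5, a subunit of the anaphase-promoting complex (0.42, adjusted p = 0.135), Vps33a, a vesicle fusion protein of the endosome and lysosome (0.41, 0.137), Erp29, a chaperone of the endoplasmic reticulum (-0.34, 0.22), and Kmt5a, a histone H4 methyltransferase (0.27, 0.344). Anapc5 was at 7.42, 7.39, 7.32 and 7.29 in CAG42 and 6.97, 6.94, 6.79 and 7.03 in WT mice. On other chromosomes these were Thap12 (0.33), the matrix protein Npnt (-0.37), the transcription factor Bcl11a (0.29), the cohesin subunit Stag1 (-0.38), the autophagy receptor Calcoco2 (0.25), the serine protease Fap (0.28), Gm20559 (0.36), the ectonucleotidase Entpd3 (-0.31) and the axonemal dynein Dnah2 (0.26). Their adjusted p lay between 0.22 and 0.344. Calcoco2, Fap, Gm20559 and Dnah2 had means under 4 in both genotypes, inside the range of the control probe sets without a target.

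The region around Atxn2 held most of the called genes. With each gene taken by its brightest probe set, 16.3% of 449 genes within 20 Mb had an unadjusted p under 0.05, against 7.19% of the 612 other genes of chromosome 5, 6.69% of 16009 genes on other chromosomes and 6.96% overall. The share was 18.1% of 72 genes within 2 Mb, 23.5% of 51 genes between 2 and 5 Mb, 18.7% of 107 between 5 and 10 Mb and 12.8% of 219 between 10 and 20 Mb. Genotypes that did not overlap were found for 10.9% of the genes within 20 Mb and 4.75% on other chromosomes. Both directions occurred: of the 73 genes at an unadjusted p under 0.05, 35 were higher and 38 lower, and the median difference within 20 Mb was -0.003. Of the 7 called genes, P2rx7, Aldh2, Adam1a and A930024E05Rik lay within 2 Mb, Fbxw8 and Bri3bp between 2 and 5 Mb, and only Gid4 outside. Atxn2 lies in the stretch that was targeted in cells of that other strain, and an effect of the repeat and of linked sequence cannot be told apart in this design.

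**Figure D3:**
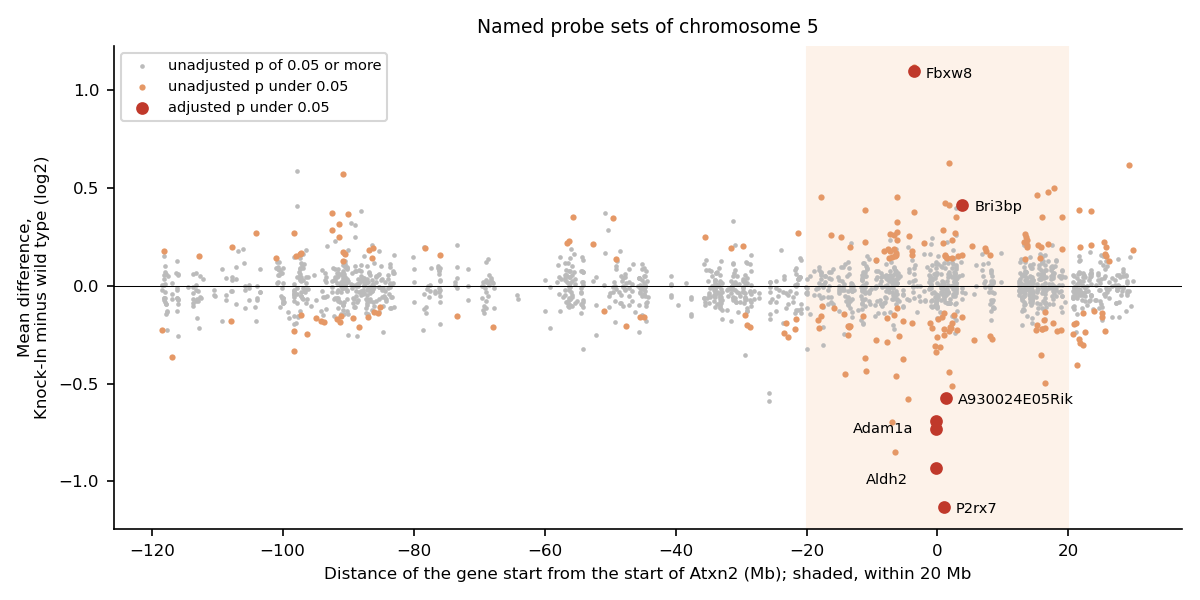
Mean difference over both brain regions (log2, CAG42 minus WT) of the named probe sets of chromosome 5 by the distance of their gene's start from that of Atxn2 (Mb), with called probe sets in red, those at an unadjusted p under 0.05 in orange and the 20 Mb on either side shaded. The 7 called probe sets with a name on this chromosome lie within the shaded band, 5 of them below 0.

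Most of the largest mean differences were not called. Of the 30 probe sets with the largest size, chosen after their values were seen, 6 were called, and 19 of the other 24 had an SD over 1 in at least 1 genotype, against a median SD of 0.093 over all probe sets. Prune2, by 1432198_PM_at, was at 8.73, 3.42, 3.61 and 3.81 in CAG42 and 8.79, 9.16, 3.85 and 9.80 in WT mice (replicates 1 to 4, means of both regions). Its levels thus fell into a high and a low range within each genotype, and the mean difference of -3.0 had an unadjusted p of 0.0725 (limma). Xaf1, an interferon-responsive apoptosis factor, was at 8.35, 7.64, 7.38 and 7.57 in CAG42 but at 7.05, 7.51, 3.01 and 3.28 in WT mice by 1443621_PM_at. Pttg1 (securin), which keeps sister chromatids from separating too early, was at 4.43 in CAG42 replicate 1 and between 8.11 and 9.40 in all the others by 1424105_PM_a_at. Cthrc1, a secreted collagen-related protein, was at 3.82, 4.23 and 4.26 in CAG42 replicates 1 to 3, at 6.42 in replicate 4 and at 6.36 to 6.71 in WT mice. In each of these the low and the high values followed the replicate number in both regions, with deviations from the group mean that differed between cerebellum and brainstem by at most 1.10.

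Gene lists for cell types and pathways were described by their brightest probe sets. By these probe sets P2rx7 was the only called one of 350 genes measured in 29 lists, against 1 higher and 3 lower of all 17075 genes. Fbxw8, also listed, was called only by a probe set that is not its brightest. The median difference of all 17075 genes was -0.001, with 49.6% above 0 and 6.96% at an unadjusted p under 0.05, and the lists were read against these values.

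Of the 14 measured genes of purinergic signalling, 9 were below 0 (median -0.069), and at an unadjusted p under 0.05 there were 2 lower and 1 higher. The list mean per replicate, relative to the WT mean and with P2rx7 included, was -0.13 to -0.11 in CAG42 and -0.05 to 0.03 in WT mice. After P2rx7, Entpd3, which breaks down extracellular ATP, was at 5.42, 5.35, 5.57 and 5.46 in CAG42 and 5.72, 5.74, 5.78 and 5.81 in WT mice (-0.31, adjusted p = 0.324). P2rx4, the other channel of this family typical of microglia, gave -0.07. The microglia and complement list had 11 of 13 genes above 0 (median 0.101), none at an unadjusted p under 0.05, with Ctss, a lysosomal protease, at 0.15 and Trem2, a lipid receptor, at 0.29. Its list mean per replicate, relative to the WT mean, was 0.01 to 0.17 in CAG42 and -0.08 to 0.08 in WT mice. These ranges overlapped, and the microglia genes Cx3cr1 (-0.04) and Aif1 (-0.02) were below 0. The part of microglia in the P2rx7 difference was not tested.

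Among partners and relatives of ataxin-2 and poly(A)-binding proteins, 8 of 10 were below 0 (median -0.053), and only Pabpc1 had an unadjusted p under 0.05. The list mean per replicate, relative to the WT mean, was -0.05 to -0.03 in CAG42 and -0.02 to 0.05 in WT mice. These ranges did not overlap, and no list was tested as a set. Atxn2l, the paralog of Atxn2, gave -0.13 (adjusted p = 0.662). Among 13 members of the SCF ligase and F-box list, Fbxw8 stood at 1.11 and the others between -0.13 and 0.11, with Cul7, its scaffold, at 0.03. Among 9 ataxia and polyglutamine disease genes, Bean1 was at 0.38 (0.67 in cerebellum and 0.10 in brainstem, adjusted p = 0.604) and the others between -0.16 and 0.05. Stress granule and mRNA decay genes had a median of 0.002 (10 of 19 above 0), cytosolic ribosomal proteins 0.031 (10 of 15) and the proteasome -0.015 (4 of 14).

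The neuronal lists stayed near the median of all genes. Purkinje cell genes had a median of 0.054 (9 of 12 above 0, none at an unadjusted p under 0.05). By region it was -0.022 in cerebellum and 0.079 in brainstem, and 6 of the 12 had the same sign in both. Car8, a regulator of calcium release, was at -0.39 (-0.60 in cerebellum and -0.18 in brainstem) and the others between -0.04 and 0.18. Inhibitory transmitter genes were below 0 in 8 of 9, by a median of -0.074. The lowest p among them was that of Gabrb2, a GABA(A) receptor subunit (-0.13, adjusted p = 0.643). Monoamine and cholinergic neuron genes were below 0 in 9 of 10 (median -0.070). Their median was -0.132 in cerebellum but 0.014 in brainstem, and 4 of the 10 had the same sign in both regions. Potassium channel genes were below 0 in 7 of 9 (-0.047) and neuropeptide precursors in 11 of 14 (-0.081). Granule cell genes were above 0 in 8 of 11 (0.034), with medians of -0.013 in cerebellum and 0.019 in brainstem. Only 2 of the 11 had the same sign in both regions. In cholesterol synthesis, 3 of 11 genes were at an unadjusted p under 0.05, all lower: Lss (-0.22), Hmgcs1 (-0.24) and Insig1 (-0.19), at adjusted p of 0.601 to 0.643, with a list median of -0.032. The list mean per replicate, relative to the WT mean, did not overlap, at -0.09 to -0.06 in CAG42 and -0.04 to 0.04 in WT mice.

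The largest list medians belonged to lists that also varied between replicates. Erythrocyte genes were above 0 in 5 of 5 (median 0.486), and Hba-a1, an alpha globin, was at 13.09, 13.44, 13.41 and 13.36 in CAG42 and 12.58, 12.75, 12.64 and 13.39 in WT mice, so that WT replicate 4 was within the CAG42 range. Hbb-b2, a beta globin, differed by 0.59 and Alas2, the first enzyme of heme synthesis in red cells, by 0.87, neither called. Choroid plexus genes were above 0 in 9 of 10 (median 0.326, 0.531 in cerebellum and 0.167 in brainstem). Ttr, the carrier of thyroid hormone made in choroid plexus, was at 12.61, 12.83, 12.39 and 12.71 in cerebellum of CAG42 and 11.88, 12.72, 12.45 and 9.73 in cerebellum of WT mice, and the last value stood below all the others. Without WT replicate 4 the choroid plexus median was 0.170 and the erythrocyte median 0.669. Interferon-stimulated genes were above 0 in 10 of 11 (median 0.241), with Irf7 at 3.54, 3.43, 3.98 and 3.60 in CAG42 and 3.08, 3.20, 3.42 and 3.38 in WT mice. These Irf7 levels are within the range of the control probe sets without a target. The list mean per replicate, relative to the WT mean, overlapped, at -0.10 to 0.43 in CAG42 and -0.14 to 0.30 in WT mice. Immediate early genes, which respond within minutes to neuronal activity, were above 0 in 10 of 13 (median 0.194), with Fos at 0.63, Nr4a1 at 0.40 and Egr1 at 0.34. The part of these lists in the called differences was not tested.

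**Figure D4:**
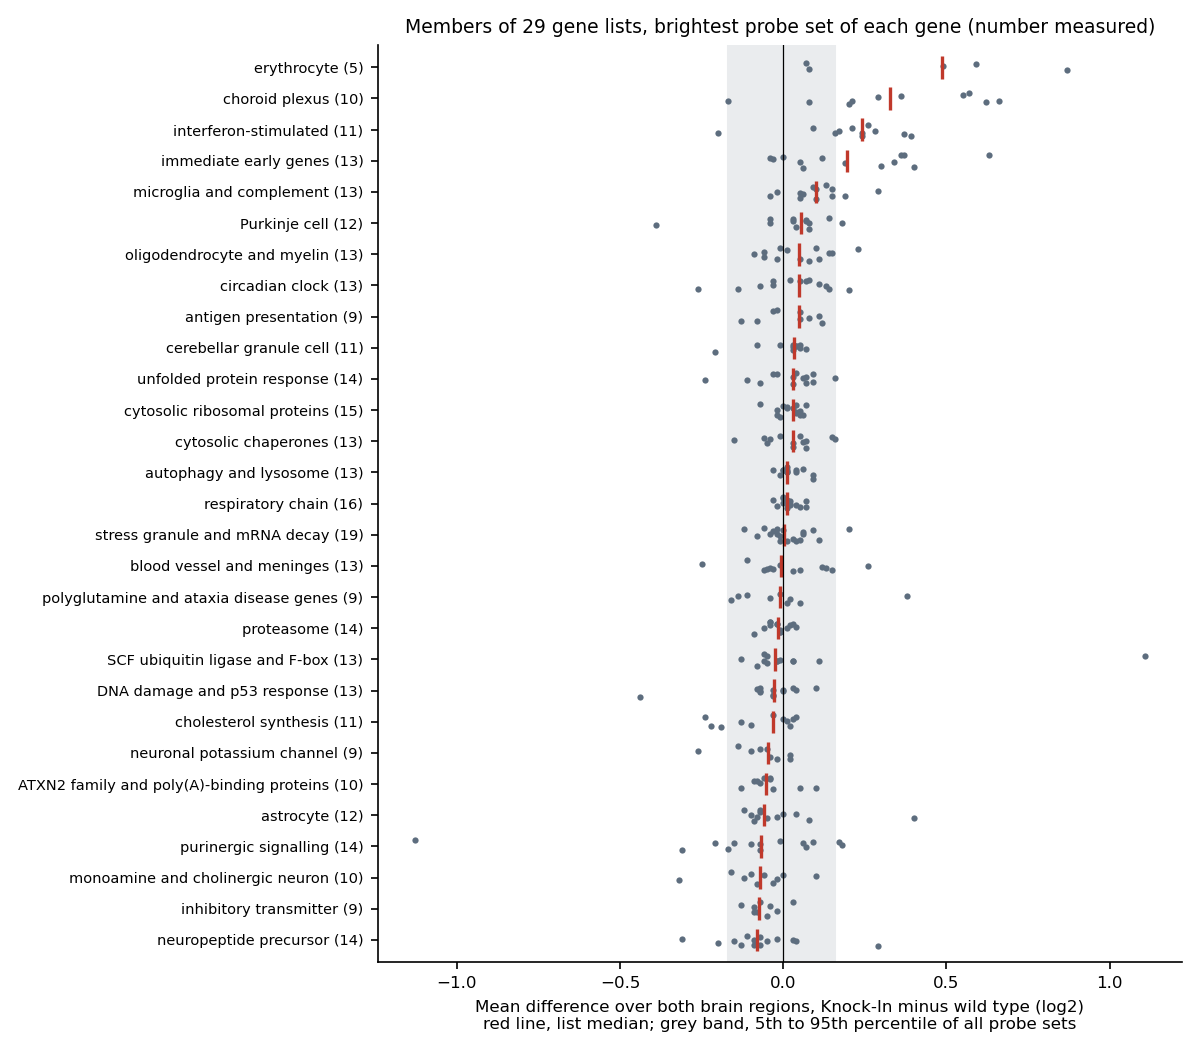
Mean difference over both brain regions (log2, CAG42 minus WT) of the 350 measured genes of 29 lists, with each list's median in red and the 5th to 95th percentile of all probe sets (-0.17 to 0.16) in grey. The medians of 4 lists (erythrocyte, choroid plexus, interferon-stimulated and immediate early genes) are 0.19 or more, and the band, which is the spread of single probe sets, is no measure for a median. The single points farthest from 0 are P2rx7 at -1.13 and Fbxw8 at 1.11.

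Liver, the third tissue of the series and not used to choose the probe sets, was compared for the same 18. In liver all 18 lay in the direction seen in brain, 10 at an unadjusted p under 0.05, where 3.36% of all probe sets had such a p, and 4 without overlap. Over all probe sets, 56.5% lay in the direction of brain and 1.83% did so without overlap. The count of 10 was 4 to 8 when 1 liver array was left out, 4 without CAG42 replicate 1 or 3, 5 without WT replicate 4 and 6 without WT replicate 2. None passed an adjusted p under 0.05 in liver (0% of all). The liver difference was 0.286 of the brain difference in the median. Both liver group means lay under 4.76 for P2rx7, A930024E05Rik, both Adam1a probe sets and most of the called ones without a gene. That is the top of the range of the control probe sets without a target on brain arrays. Liver differences at such levels may be limited by the floor. Liver arrays carry the same replicate numbers and may come from the same mice, so that they are not independent of the brain arrays. Aldh2 was at 4.34, 4.53, 4.74 and 4.48 in CAG42 and 6.06, 5.70, 5.69 and 5.57 in WT liver by the dim probe set, a difference of -1.24 that was as large as in brainstem. Its brighter probe sets did not show this in liver. Their means were 11.77 in CAG42 and 11.95 in WT mice by 1448143_PM_at, and 7.81 and 7.94 by 1437410_PM_at. P2rx7 differed by -0.68 in liver and Bri3bp by 0.38, whereas Gid4 was within 0.10 of 0. The Adam1a probe sets disagreed in liver, with -0.07 by the first and -0.50 by 1427790_PM_at, both with group means under 4.76.

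**Figure D5:**
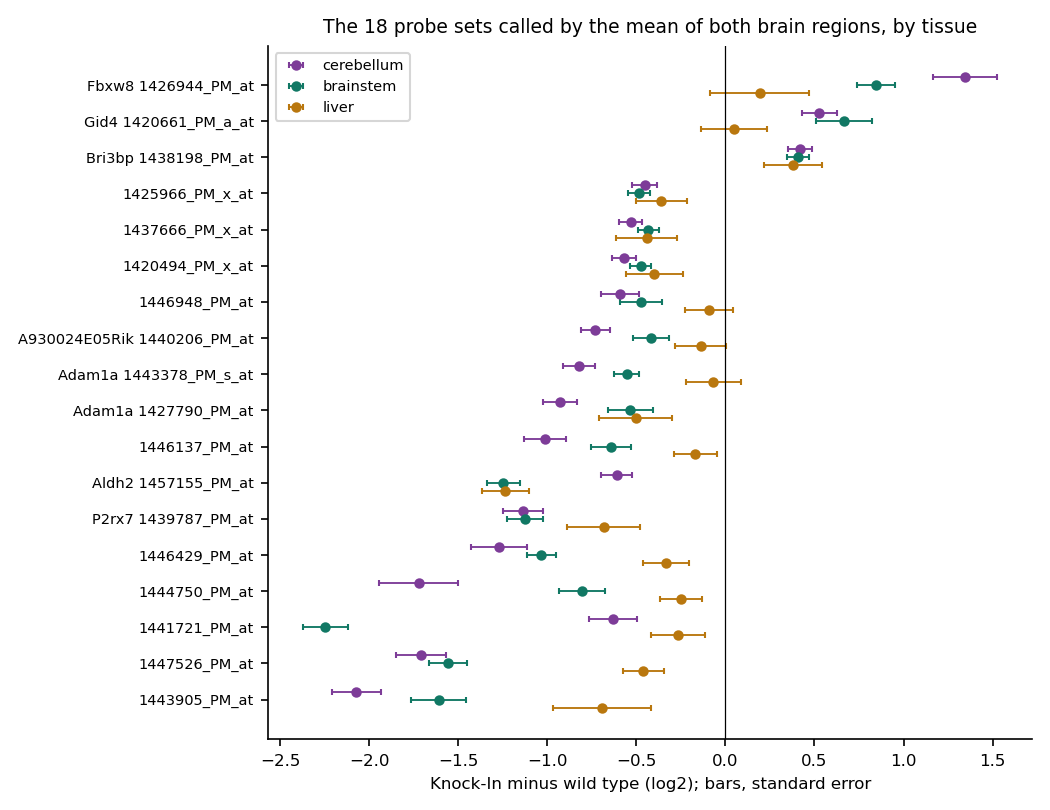
Difference between CAG42 and WT (log2) in cerebellum, brainstem and liver for the 18 probe sets called by the mean of both brain regions, with bars for the standard error (n = 4 per genotype and tissue). Cerebellum and brainstem points lie on the same side of 0 throughout, which the choice by their mean favours. Most liver points lie closer to 0, many of them from levels within the range of the control probe sets without a target. Those of Aldh2, Bri3bp, Adam1a 1427790_PM_at and 1437666_PM_x_at, among others, lie about as far from 0 as in a brain region.

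A few genes of metabolism and inflammation with large liver differences were not called in brain. Acat1, an enzyme of ketone body metabolism, differed by -0.15 over both brain regions (adjusted p = 0.645), Ifi27, an interferon-induced gene, by 0.17 (0.732) and Lgals1, galectin-1, by -0.01 (0.985). For Lgals1 the sign differed between settings. In liver their differences by the same probe sets were -0.66, 1.68 and 1.10. None of these passed an adjusted p under 0.05 there (limma, 0 of 45037 probe sets). The study reported changes of these genes in liver, but its qPCR on other animals did not reproduce them.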

How the data were processed

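RNA from cerebellum, brainstem and liver of 18-month-old mice was hybridised to 24 Affymetrix arrays. The authors deposited log2 values after RMA, which the submitters' processing notes credit to R 2.7.0. Neither scan dates nor probe-level signals entered. Groups and replicate numbers came from the sample labels. Nothing says that the replicates were processed apart, so p-values measure only the spread between these samples.

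The 104 array controls were left out. Arrays with the same genotype and number were averaged over cerebellum and brainstem, since their deviations from the group means correlated with r of 0.224 to 0.375 and all 8 pairs correlated best with their own number. CAG42 was compared with WT on these 8 values with limma 3.58.1 in R 4.3.3 (lmFit and eBayes, 6 residual degrees of freedom), and p-values were adjusted over 45037 probe sets by the Benjamini-Hochberg method. All p-values are from this test unless called exact. Each region and liver were also fitted alone with their 8 arrays, and the difference between regions on the within-number differences.

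Of the probe sets, 28898 had 1 gene in the platform annotation, 551 several and 15588 none, and 2 were named through the paper. Gene positions and promoters came from RefSeq tables of GRCm38.p6, whose distances alone were used. For lists, the brightest probe set stood for a gene. Named genes were called genes without overlap filled up to 20 by p, Atxn2, Pabpc1 and genes of the study's array results, the lowest p of each list and of the difference between regions, and called probe sets without a gene. Second probe sets and the largest differences were chosen after their values were seen. Members, lists and rules were chosen with earlier results of these data known. Alternatives changed the link, spread, moderation, filter, normalization, weights and replicates. The fit was tested on simulated data, and figures were drawn in Python 3.11.15 with matplotlib 3.10.9.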

Additional observations from a re-analysis of the deposited data

Results flagged for a closer look

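In 3 of 72 groups of 4 values checked, 1 sample stood apart, where chance flags about 1 in 20 groups. By the Adam1a probe set that the study assigns to this gene, WT replicate 1 was at 6.73 and the other WT means at 6.52 to 6.56, and its gap was 0.847 of the range of the group. By the other called Adam1a probe set, WT replicate 3 was at 6.84 and the others at 6.98 to 6.99 (0.917 of the range). Both remained above every CAG42 value. For Dnah2, WT replicate 3 was at 3.44 and the others at 3.54 to 3.55 (0.864 of the range).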

How the results depend on the processing

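Of the 18 probe sets, 12, all lower in CAG42 mice, were called in each of the 8 fits that left out 1 number, and the 3 higher ones, Fbxw8, Bri3bp and Gid4, were each called in 1 of them. Over these fits the count ran from 12 to 30, with 30 without CAG42 replicate 4. The count was 24 with an intensity trend and robust moderation, 18 after quantile normalization or with array weights, 21 by a joint F test of both regions, 11 among the brighter probe sets and 3 with the probe sets of a gene averaged. Only P2rx7, Aldh2 and 5 probe sets without a gene were called under every alternative that tests them.

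For the pairing, no replicate block (16 unlinked arrays) gave 37 calls that included all 18, a random replicate block 30, and all 24 arrays with a random replicate block 34. CAG42 and WT arrays of 1 number did not deviate together (r of -0.066 to 0.186, and 1 of 4 numbers correlated best with its own), so they share only a number, and a block across genotypes gave 7 calls. The test of the difference between regions gave 0 calls and 1 call with no block, with either random block, with the trend, and without CAG42 replicate 1 (0 to 1 when leaving out a number).

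Cerebellum alone gave 10 calls, 21 when 16 arrays shared the spread, and 1 to 7 with an array left out, with 1 without WT replicate 1 or 4. Brainstem alone gave 6, 13 with a shared spread and 5 to 14 with an array left out, with 14 without CAG42 replicate 4. In liver an unadjusted p under 0.05 was found for 10 of the 18, and for 4 to 8 with an array left out. Lgals1, at -0.01, turned to 0.01 with array weights and ran from -0.07 to 0.05 with a number left out, with 0.02 and 0.03 without CAG42 replicates 3 and 4, and 0.03 and 0.05 without WT replicates 2 and 3. The cause of these shifts was not tested. Levels within the range of the control probe sets without a target limit 10 of the 18, in at least 1 array each.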

Other observations

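Glial and stress lists stayed close to the median of all genes. In the oligodendrocyte and myelin list, 8 of 13 genes were above 0 (median 0.047), with the myelin adhesion protein Mag at 0.15 and Mog at 0.14, at unadjusted p of 0.0157 and 0.0483 in limma. Of 12 astrocyte genes 8 were below 0 (median -0.060), although Serpina3n, a marker of reactive astrocytes, was at 0.40. Unfolded protein response genes had a median of 0.031, with Atf3 at -0.24, and circadian clock genes 0.047. The kinase Chek2 was the lowest of 13 DNA damage and p53 genes at -0.44 (adjusted p = 0.43 in limma), and the others lay between -0.08 and 0.10.

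Gdpd3, a phospholipase, is another gene chosen after its values were seen whose replicates fell apart within both genotypes. By 1449526_PM_a_at its brain means were 8.14, 4.49, 4.29 and 7.22 in CAG42 and 4.38, 7.77, 9.33 and 7.07 in WT mice. In liver the arrays of the same numbers were at 8.75, 4.25, 3.98 and 8.99 in CAG42 and 4.38, 8.68, 10.27 and 8.45 in WT mice. Lztfl1, which regulates transport to cilia, was at 2.59 and 2.71 in CAG42 replicates 1 and 2 and at 5.24 to 6.69 in all the others in brain.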
